A study of Mus musculus with 4 samples.

Results

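Enpp2-high cells formed a minor population of the H3R26C 5-Aza library, and are defined as cells with at least 8 molecules of Enpp2 RNA and at least 1 of Hopx RNA. Of 22049 cells kept in the series and 7619 kept in this library, 711 were Enpp2-high. They were set against the 6101 cells of the same library with at most 1 Enpp2 molecule, called Enpp2-low below. The cells were thus chosen by their Enpp2 and Hopx counts, so the levels of both genes are given as a description and both were left out of every count of genes.

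The series profiled C3H10T1/2 cells, a mouse embryo line of mesenchymal progenitor cells (MPC), by droplet single-cell RNA sequencing, in which each RNA molecule is counted once by a unique molecular identifier (UMI). All 4 libraries came from lines that carried a lentiviral histone H3.1 transgene beside the endogenous H3 genes and were selected with puromycin. The transgene was wild type (H3WT) or had arginine 26 changed to cysteine (H3R26C), and each line was given the vehicle DMSO or 5-Azacitidine (5-Aza), an inhibitor of DNA methyltransferases after which MPC can differentiate into muscle and fat. Each of the conditions H3WT DMSO, H3WT 5-Aza, H3R26C DMSO and H3R26C 5-Aza had 1 library, so a difference between conditions and a difference between libraries cannot be told apart and no test was made. The age of the cultures at collection is not given for the DMSO cells in the sources used here, so treatment and time in culture cannot be told apart. Cells with at least 5000 UMIs, at least 1500 genes and at most 20% mitochondrial UMIs were kept, which left 3710, 5993, 4727 and 7619 cells in the order above. Levels are given as CPM, the UMIs of a gene summed over a set of cells and divided by all UMIs of that set on the usual counts-per-million scale, and their 95% exact Poisson intervals cover counting error only.

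Enpp2 encodes autotaxin, a secreted lysophospholipase D that makes the signalling lipid lysophosphatidic acid (LPA) outside cells. Autotaxin is made by adipose and other mesenchymal tissues, and LPA acts on a family of G protein-coupled receptors. Hopx encodes a small homeodomain protein that does not bind DNA itself. Of the other genes taken as markers of these cells, Ly6e encodes a surface protein of the Ly6 family anchored in the membrane by a lipid, Plac8 a small cysteine-rich protein and Pdgfra the alpha receptor for platelet-derived growth factor, a common marker of mesenchymal progenitors.

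5-Aza acts on DNA methylation, which in mammals lies mainly at CpG dinucleotides, so the promoters of 2 of the marker genes and of 1 gene of the pair with the strongest shared rise are shown here with their CpG in capitals. The windows are from RefSeq on GRCm38.p6, run from 250 bases before to 50 after a transcript start of the gene, and are written along the strand of the gene. Plac8 and Tmem176a have 2 windows each in the table, of which the one listed first is shown. Methylation was not measured in these libraries.
Plac8, chr5:100572156-100572455, minus strand: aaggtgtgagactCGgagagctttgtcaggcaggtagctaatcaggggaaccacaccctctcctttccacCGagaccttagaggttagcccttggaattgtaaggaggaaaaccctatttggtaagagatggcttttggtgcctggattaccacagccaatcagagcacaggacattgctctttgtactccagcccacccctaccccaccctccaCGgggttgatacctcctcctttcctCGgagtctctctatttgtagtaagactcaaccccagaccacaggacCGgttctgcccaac
Pdgfra, chr5:75152001-75152300, plus strand: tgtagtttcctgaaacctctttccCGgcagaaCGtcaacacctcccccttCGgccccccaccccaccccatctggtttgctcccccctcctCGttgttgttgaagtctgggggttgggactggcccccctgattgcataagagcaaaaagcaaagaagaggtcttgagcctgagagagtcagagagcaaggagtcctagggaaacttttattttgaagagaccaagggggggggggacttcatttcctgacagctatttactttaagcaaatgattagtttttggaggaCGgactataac
Tmem176a, chr6:48841233-48841532, plus strand: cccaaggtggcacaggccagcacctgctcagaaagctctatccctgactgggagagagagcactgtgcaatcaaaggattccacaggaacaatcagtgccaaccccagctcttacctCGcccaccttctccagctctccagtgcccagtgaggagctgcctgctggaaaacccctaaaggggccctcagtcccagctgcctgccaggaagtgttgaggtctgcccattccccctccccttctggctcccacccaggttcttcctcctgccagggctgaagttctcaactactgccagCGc
Plac8 and Pdgfra each had 5 CpG in the window and Tmem176a had 2, beside a median of 7 over the 27025 genes with a window and of 22 over the 7151 genes tested here that have one. Other windows of the markers and leading genes held more, with 8 CpG for Hopx, 43 for Mpp6, 24 for Gsdme, 22 each for Wdr31 and Fbln7 and 19 for Hpse, and others few, with 4 for Cilp, 2 for Sp100 and 1 for Tmem176b. The window of Tmem176b, its neighbour on the other strand, lies at chr6:48841088-48841387 and overlaps that of Tmem176a. A comparison of promoters between all genes that were higher and all genes tested was void, since a window was at hand for only 67.5% of the former and 79.9% of the latter.

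The share of cells that met the rule was 9.33% in H3R26C 5-Aza (95% exact binomial interval 8.69 to 10.0%), against 0.350% (0.187 to 0.598%) in H3WT DMSO, 1.40% (1.12 to 1.73%) in H3WT 5-Aza and 0.804% (0.569 to 1.10%) in H3R26C DMSO. These were 711, 13, 84 and 38 cells. The intervals cover the counting of cells only, and these shares describe the counts that defined the cells in single libraries, with no test. The median depths were 13123, 22420, 13149 and 16598 UMIs in the same order. With a minimum of 400 CPM of Enpp2 in place of 8 UMIs, which takes depth into account, the shares were 9.90%, 0.323%, 1.67% and 0.910%. Both genes of the rule contributed. Enpp2 alone reached 8 UMIs in 10.3% of H3R26C 5-Aza cells, and in 2.61%, 3.84% and 6.62% of the others in the order H3WT DMSO, H3WT 5-Aza, H3R26C DMSO. A Hopx UMI was found in 59.9% of all cells of H3R26C 5-Aza but in 7.30%, 18% and 11.1% of cells there. The H3R26C DMSO library therefore held many cells with some Enpp2, of which 275 of 313 had no Hopx UMI, whereas in H3R26C 5-Aza only 77 of 788 had none.

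The Enpp2 counts of H3R26C 5-Aza reached further up than those of the other libraries. Over ranges that double in width, the share of cells went from 5.41% at 2 to 3 UMIs to 4.17% at 4 to 7, 3.54% at 8 to 15 and then 4.13% at 16 to 31 UMIs, whereas in the other libraries it went down at each of these steps. This describes the counts that chose the cells. At least 20 Enpp2 UMIs were counted in 5.45% of H3R26C 5-Aza cells and in 0.943 to 1.08% of the cells of the other libraries. Within the Enpp2-high cells the count ran from 8 to 104 with a median of 21.

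**Figure D1:**
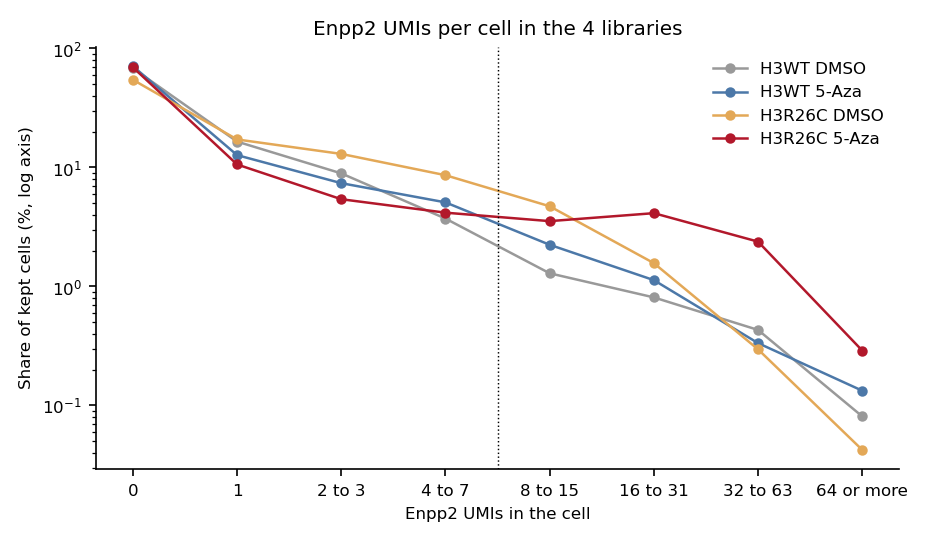
Share of kept cells (log axis, percent) by the number of Enpp2 UMIs in the cell for each of the 4 libraries, with a dotted line at the minimum of 8 UMIs. From 16 UMIs up, H3R26C 5-Aza lies above the other libraries, with 4.13% of its cells at 16 to 31 UMIs against 0.809 to 1.57%.

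Depth was similar in Enpp2-high and Enpp2-low cells. The medians were 13181 UMIs and 3972 genes against 13040 UMIs and 3824 genes, mitochondrial genes made up a median of 2.84% against 2.49% of the UMIs, and ribosomal protein genes 15.9% against 16.4% of the summed UMIs. Of the barcodes of the Enpp2-high cells, 4, 6 and 7 also occurred among kept cells of H3WT DMSO, H3WT 5-Aza and H3R26C DMSO. Free RNA in droplets gives UMIs in cells that do not express a gene, so shares of cells with a UMI are set beside a population that should lack it. After each cell was thinned to 5000 UMIs, an Enpp2 UMI was found in 5.28% of Enpp2-low cells and in 5.11% of 235 cells rich in muscle RNA, defined as cells in which skeletal muscle markers made up at least 1% of the UMIs, against 99.4% of Enpp2-high cells. Before thinning these shares were 13.2%, 11.9% and 100%, at median depths of 13040, 18805 and 13181 UMIs. The contrast between Enpp2-high and Enpp2-low cells in these shares was fixed by the rule. The muscle-rich cells included 5 Enpp2-high cells, so their share does not measure free RNA alone.

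The 5 markers, chosen with earlier results of these data known, were higher in Enpp2-high cells. Their direction is therefore no independent evidence for the label. Enpp2 (chromosome 15, 54838901 to 54952892, GRCm38) was at 1680 CPM in Enpp2-high and 9.18 CPM in Enpp2-low cells, and Hopx (chromosome 5, 77086988 to 77115121) at 618 and 176 CPM, as the choice of cells requires. Ly6e (chromosome 15, 74955051 to 74959905), which the rule did not use, was at 2552 CPM (2522 to 2583) against 668 CPM (663 to 673), or 3.82-fold higher. Plac8 (chromosome 5, 100553725 to 100572245) was at 1080 CPM (1060 to 1100) against 286 CPM (283 to 290), or 3.77-fold higher. Pdgfra (chromosome 5, 75152292 to 75198215) was at 417 CPM (405 to 429) against 134 CPM (131 to 136), or 3.11-fold higher. None of these is exclusive to the Enpp2-high cells: after thinning, 96.1%, 84.2% and 79.3% of them had a UMI of Ly6e, Plac8 and Pdgfra, but so did 73.9%, 48.9% and 42.8% of Enpp2-low cells, and 42.6%, 26.4% and 11.5% of the muscle-rich cells. The unthinned shares were 98.6%, 91.1% and 94.7% of Enpp2-high, 85.7%, 63.1% and 68.3% of Enpp2-low and 62.6%, 51.1% and 24.7% of muscle-rich cells.

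The levels of Ly6e, Plac8 and Pdgfra changed gradually over the threshold. Cells just inside it, with 8 to 9 Enpp2 UMIs and a Hopx UMI (70 cells), had Ly6e at 1713, Plac8 at 821 and Pdgfra at 263 CPM. Cells just outside, with 6 to 7 Enpp2 UMIs and a Hopx UMI (83 cells), had 1375, 654 and 245 CPM. The 77 cells with at least 8 Enpp2 UMIs and no Hopx UMI had 835, 294 and 261 CPM, and a median depth of 10516 UMIs.

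In the whole transcriptome, 8950 genes reached 10 CPM in one or both sets of cells. At least 2-fold higher, on the log2 scale with a pseudocount of 1 CPM, were 234 genes, or 2.61% of those tested, and at least 2-fold lower were 274 genes, or 3.06%. The median log2 ratio over all genes tested was 0.020, with quartiles of -0.16 and 0.21. A 4-fold difference was reached by 52 genes upward and 40 downward. With 1 library these counts have no replicate check.

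The 15 genes with the largest log2 ratio among those with at least 50 CPM in one or both sets were Cilp, Tmem176a, Tmem176b, Wfdc13, Wdr31, Mpp6, Gbp9, Trp63, Sp100, Nsg1, Gsdme, Hpse, Wnt10a, Fbln7 and Tmem158. Cilp (chromosome 9, 65265180 to 65280605), a secreted matrix protein first described in cartilage, had the largest: 92.7 CPM (87.0 to 98.7) in Enpp2-high and 4.09 CPM (3.68 to 4.54) in Enpp2-low cells, or 22.7-fold. Tmem176a and Tmem176b, a pair of neighbouring genes of related membrane proteins on chromosome 6, were at 116 against 7.98 CPM and at 155 against 14.8 CPM. Cilp was also among the most selective by cells, with a UMI in 31.4% of thinned Enpp2-high cells and 1.62% of thinned Enpp2-low cells, where the muscle-rich cells had 2.55%. Unthinned, it was found in 44.2%, 2.88% and 4.68% of these cells.

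Several others act at the cell surface or in the matrix. Hpse (heparanase, which cuts heparan sulphate chains of the matrix) was at 163 against 35.7 CPM, Fbln7, a fibulin of the matrix, at 57.2 against 12.6 CPM, and Wnt10a, a secreted Wnt ligand, at 104 against 22.7 CPM. Nsg1, known from vesicle traffic in neurons, was at 304 against 63.3 CPM, and Mpp6, a scaffold protein of cell contacts, at 244 against 41.4 CPM. Trp63, which encodes the p53 relative p63 and is best known from stratified epithelia, was at 122 against 24.9 CPM, although keratins of such epithelia were absent: Krt5 and Krt14 had no UMI in the Enpp2-high cells. Gbp9 and Sp100, both genes that interferon can induce, were at 93.2 against 18.1 CPM and at 61.6 against 12.2 CPM, and Gsdme, a pore-forming gasdermin, at 61.3 against 12.3 CPM.

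**Figure D2:**
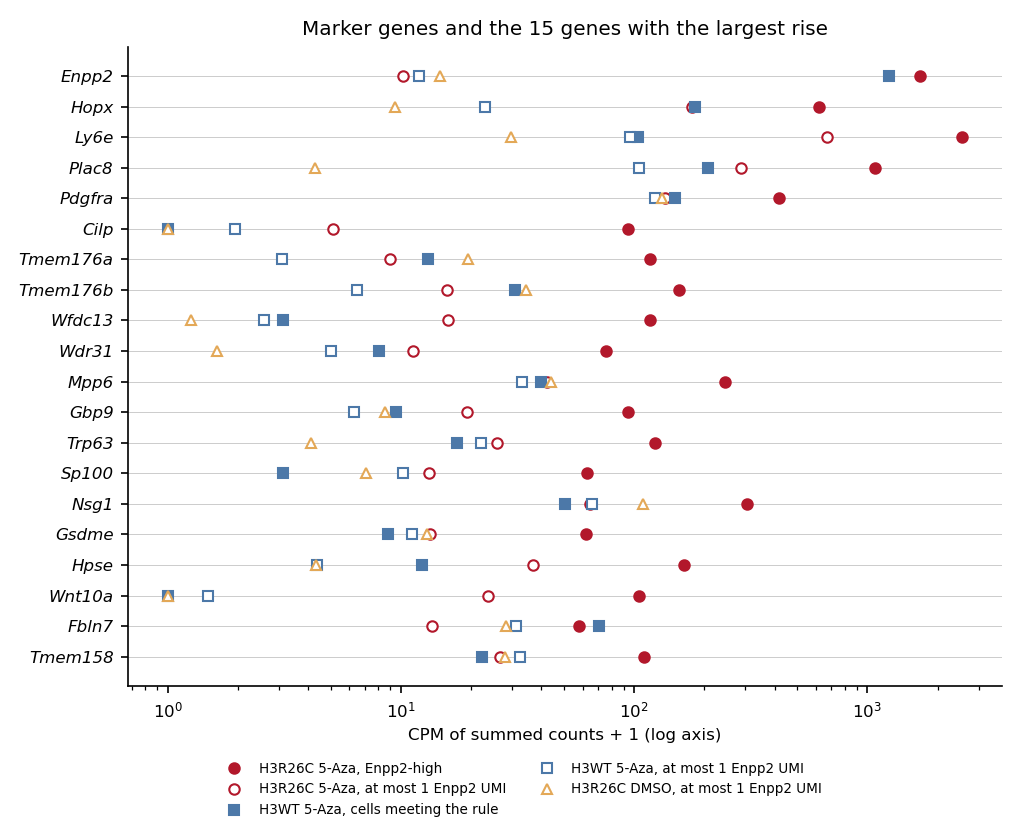
Levels (CPM of summed counts plus 1, log axis) of the 5 marker genes and the 15 genes with the largest log2 ratio, in Enpp2-high and Enpp2-low cells of H3R26C 5-Aza, in the corresponding cells of H3WT 5-Aza and in Enpp2-low cells of H3R26C DMSO. Ly6e stands at 2552 CPM in the Enpp2-high cells of H3R26C 5-Aza and at 103 CPM in the H3WT 5-Aza cells that met the same rule, with 668 and 95.1 CPM in the Enpp2-low cells of these libraries.

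The leading genes were found together in most but not all Enpp2-high cells. Of the 15, a thinned Enpp2-high cell held a median of 6 (quartiles 3 and 8) and a thinned Enpp2-low cell 1 (0 and 2). At least 5 were found in 65.7% of Enpp2-high cells, in 10.8% of the 730 cells with 2 to 7 Enpp2 UMIs and in 0.738% (45 cells) of Enpp2-low cells. None of the 15 was found in 27 Enpp2-high cells. Since these genes were taken from the same cells, the shares describe how the genes are spread and are not a test.

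The levels of most leading genes went up with the Enpp2 count. Cells with 0 to 1, 2 to 3, 4 to 7, 8 to 15 and at least 16 Enpp2 UMIs (6101, 412, 318, 225 and 486 cells) had median depths of 13040, 14280, 14427, 14550 and 12676 UMIs. In this order Ly6e was at 668, 875, 1172, 2109 and 2781 CPM, so each step was upward. Cilp was at 4.09, 9.62, 19.4, 59.7 and 110 CPM and Tmem176a at 7.98, 23.1, 40.8, 67.8 and 141 CPM. Pdgfra was at 134, 165, 187, 315 and 470 CPM. After thinning to 5000 UMIs the order was the same for these genes, with Pdgfra at 151, 191, 205, 334 and 498 CPM. Wfdc13 had no step between the first 2 ranges, with 14.9 CPM in both. The cells from 8 UMIs up also had a Hopx UMI by the rule, which the lower ranges did not need. The 77 cells left out for lack of one had Ly6e at 835, Plac8 at 294 and Wnt10a at 8.84 CPM, below the cells with 4 to 7 Enpp2 UMIs (1172, 527 and 53.3 CPM). Pdgfra (261 against 187 CPM), Cilp (23.2 against 19.4 CPM) and Trp63 (60.8 against 44.0 CPM) were above them, and the part of Hopx in the step at 8 UMIs was not tested. Spp1, which encodes the secreted matrix protein osteopontin, had no such order, with 4888, 4254, 4148, 5372 and 6426 CPM.

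**Figure D3:**
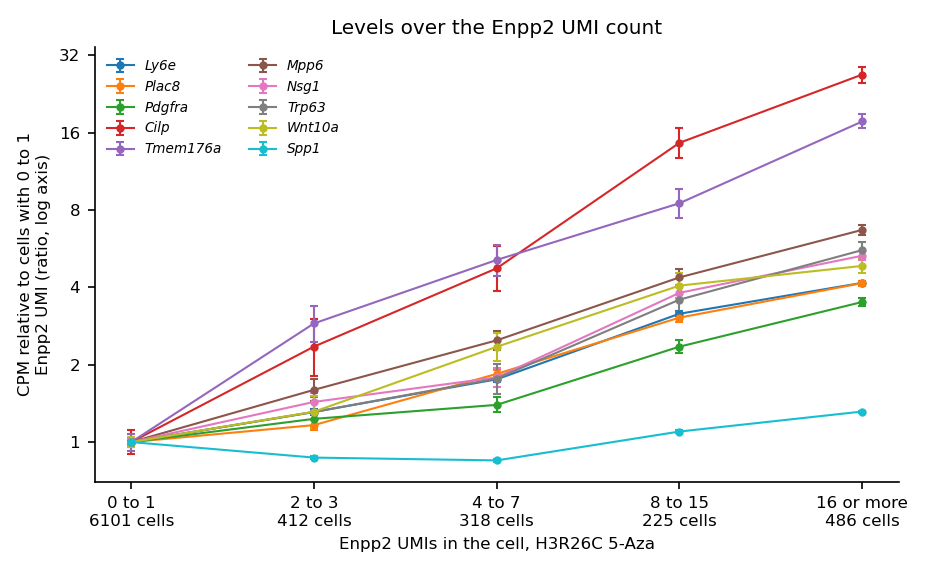
Levels of 10 genes relative to cells with 0 to 1 Enpp2 UMI (ratio of CPM, log axis) over 5 ranges of the Enpp2 count in H3R26C 5-Aza, with 95% Poisson intervals of each level. Cilp and Tmem176a have the steepest slopes, from 4.09 to 110 CPM and from 7.98 to 141 CPM, and Spp1 the flattest, from 4888 to 6426 CPM.

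Genes of the interferon response were higher as a group. Type I and type II interferons induce such genes, and many of their products act against viruses. Of 35 listed genes 33 were in the files and 30 were tested. At least 2-fold higher were 14 and none was lower, the log2 ratio was above 0 for 29, and the median was 0.87 beside 0.020 for all genes tested. Oas1a, an enzyme that senses double-stranded RNA, was at 24.3 against 4.27 CPM, Oas2 at 23.1 against 6.60 CPM, Ifi44 at 41.3 against 10.4 CPM and Trim30a at 37.7 against 9.72 CPM. Irf7, a transcription factor of the pathway, was at 115 against 40.5 CPM. The abundant members Ifi27l2a (659 against 650 CPM) and Ifi27 (412 against 457 CPM) did not reach 2-fold. The summed level of the list was 7261 CPM in Enpp2-high and 4655 CPM in Enpp2-low cells.

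The machinery that presents peptides on class I molecules of the major histocompatibility complex (MHC) followed the same direction. Of 20 listed genes 17 were tested, 8 were at least 2-fold higher, none was lower and the median was 0.82. Psmb8 and Psmb9, catalytic subunits of the immunoproteasome, were at 209 against 58.1 CPM and at 106 against 30.9 CPM. The class I heavy chain H2-K1 was at 1176 against 409 CPM and H2-Q7 at 156 against 43.2 CPM, and the values of the H2-Q genes are uncertain since near-identical copies can share reads. B2m, the common light chain, was at 1014 against 654 CPM. Both lists were chosen with earlier results of these data known and are no independent evidence of their direction. Levels of both lists were lower in all the other libraries: the interferon list summed to 1963, 1522 and 1011 CPM in the Enpp2-low cells of H3WT 5-Aza, H3R26C DMSO and H3WT DMSO.

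Of the Ly6 family 17 genes were listed and 6 were tested, and besides Ly6e only Ly6c2 (379 against 155 CPM) and Ly6c1 (168 against 80.6 CPM) were at least 2-fold higher, Ly6c1 no longer so without the muscle-rich cells (168 against 83.9 CPM). Ly6a (Sca-1), a marker of mesenchymal progenitors, was at 2739 against 1411 CPM, just under 2-fold. Cd59a, an inhibitor of complement, was at 7.87 against 19.2 CPM, at least 2-fold lower. For 6 members, among them Ly6g and Lypd3, no UMI was counted in Enpp2-high cells.

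Other genes of the LPA pathway did not go with Enpp2. Of 15 listed receptors and enzymes 9 were tested, none was at least 2-fold higher and the median was -0.16. The receptor Lpar1 was at 136 against 120 CPM, and Lpar4 was at least 2-fold lower, at 7.49 against 19.9 CPM. Lpar2, Lpar3, Lpar5 and Lpar6 stayed under 10 CPM in both sets. Plpp3, a phosphatase that breaks LPA down, was the most abundant member, at 852 against 661 CPM.

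**Figure D4:**
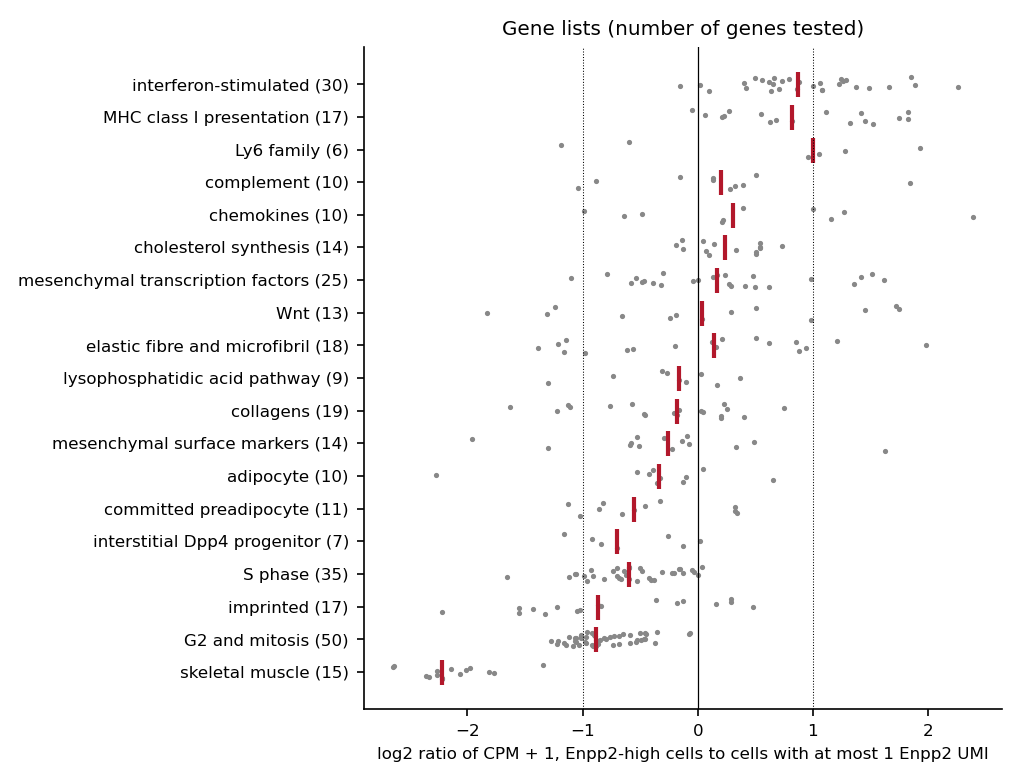
Log2 ratio of CPM plus 1 between Enpp2-high and Enpp2-low cells of H3R26C 5-Aza for the tested genes of 19 lists, with 1 grey point for each gene, a red bar at the median and dotted lines at 2-fold. The interferon and MHC class I lists lie to the right, with medians of 0.87 and 0.82, and the skeletal muscle list to the left with -2.22, which was -0.19 without the muscle-rich cells.

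Among genes with at least 50 CPM in one or both sets, the 10 with the smallest log2 ratio were all of skeletal muscle, namely Myh3, Ttn, Neb, Mymx, Mymk, Tnnc2, Myog, Mylpf, Tnni2 and Acta1. Acta1, the actin of skeletal muscle, was at 189 against 791 CPM and Ttn, the giant sarcomere protein titin, at 121 against 757 CPM. All 15 tested genes of the muscle list were at least 2-fold lower, with a median of -2.22. Few cells held most of this RNA, since muscle-rich cells were 3.67% of Enpp2-low cells (224 cells) and 0.703% of Enpp2-high cells (5 cells). Without them 3 of 13 muscle genes were at least 2-fold lower, the median was -0.19, Acta1 was at 106 against 117 CPM and Ttn at 111 against 105 CPM. The transcription factors of muscle stayed lower, Myog at 11.9 against 35.5 CPM and Myod1 at 5.08 against 18.7 CPM. Acta1 was found in 36.7% of thinned Enpp2-high and 40.2% of thinned Enpp2-low cells and in 64.3% and 67% before thinning, and the part of free RNA in these shares was not tested.

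With the muscle-rich cells left out, a comparison added after the values were seen, the 10 genes of at least 50 CPM with the smallest log2 ratios were Hp, Sfrp2, Fhl1, Col12a1, Penk, Cst6, Slpi, Nrep, Rspo2 and Hsd11b1. Hp, which encodes the haemoglobin-binding protein haptoglobin, was at 9.58 against 51.8 CPM. Sfrp2, a secreted Wnt modulator, was at 51.9 against 194 CPM and Rspo2, which amplifies Wnt signals, at 79.4 against 237 CPM. Slpi, an inhibitor of proteases, was at 119 against 367 CPM.

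Cell cycle genes were lower. Of 50 tested genes of G2 and mitosis 15 were at least 2-fold lower and none was higher, all 50 had a log2 ratio below 0 and the median was -0.88. Mki67, a marker of cycling cells, was at 39.7 against 89.9 CPM and Ccnb2, a mitotic cyclin, at 18.2 against 45.3 CPM. Of 35 tested S phase genes 4 were lower, among them Cdca7 at 2.94 against 11.5 CPM, and the median was -0.60. A UMI of Mki67 or Top2a was found in 13.9% of thinned Enpp2-high cells (11.5 to 16.7%) and in 23.9% of thinned Enpp2-low cells (22.8 to 25%), and in 26.6% and 35.8% before thinning. The decrease was in cells with the most Enpp2: the list of G2 and mitosis summed to 3327 CPM at 0 to 1, 2965 CPM at 8 to 15 and 1382 CPM at 16 or more Enpp2 UMIs. The median depths of these cells were 13040, 14550 and 12676 UMIs, and with all cells thinned the median log2 ratio of the list was -1.04.

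Imprinted genes, which are expressed from 1 parental allele under the control of DNA methylation, were lower in part. Of 26 listed 17 were tested, 8 were at least 2-fold lower, none was higher and the median was -0.87. The 8 included members of several clusters, with Peg3 at 2.75 against 16.5 CPM, Igf2 at 18.5 against 55.9 CPM, Rian at 4.08 against 13.9 CPM and Meg3 at 22.1 against 61.1 CPM. H19, the untranslated neighbour of Igf2, was at 123 against 311 CPM. Muscle-rich cells had high levels of some of these genes, with H19 at 2861 CPM, Igf2 at 299 CPM and Peg3 at 206 CPM. Without these cells 5 of 16 tested were at least 2-fold lower and the median was -0.76. Igf2, Rian, Meg3, Plagl1 and Dlk1 were the 5, while H19 was at 104 against 170 CPM, Mest at 5.65 against 11.2 CPM and Peg3 fell under the minimum level, at 1.82 against 5.67 CPM. Not all followed, since Dcn (1828 against 1493 CPM), Sgce (58.5 against 41.6 CPM) and Igf2r (124 against 101 CPM) had log2 ratios above 0. Of 25 germline genes, which DNA methylation often keeps silent, only Rhox5 was tested, at 24.1 against 56.7 CPM. The genes of PRC2 (9 tested) and of DNA methylation enzymes (8 tested) held none past 2-fold, although Uhrf1 was at 13.4 against 28.9 CPM (log2 ratio -1.05) without the muscle-rich cells. The most abundant members included Rbbp7 at 202 against 225 CPM, Rbbp4 at 127 against 132 CPM and Mbd2 at 162 against 99.1 CPM.

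Markers of other cell types were low or mixed. No adipocyte gene was at least 2-fold higher among 10 tested; Adipoq was at 9.01 against 11.7 CPM and Fabp4, which carries fatty acids, at 136 against 86.6 CPM, while Car3 was at 1.42 against 10.7 CPM, and under the minimum level without the muscle-rich cells (1.44 against 8.50 CPM). The lists of committed preadipocytes (median -0.55 over 11 genes) and of interstitial Dpp4 progenitors (median -0.70 over 7) held no gene at least 2-fold higher, and Dpp4 itself had no UMI. Smooth muscle genes were lower in 3 of 5, with Acta2 at 163 against 547 CPM, and in 2 of 5 without the muscle-rich cells, with Acta2 at 145 against 384 CPM. Of 5 osteoblast genes tested 1 was lower, Dmp1 at 7.30 against 25.1 CPM, while Alpl (alkaline phosphatase), just under the minimum level, was at 9.96 against 0.592 CPM, and of 3 chondrocyte genes 1 was lower, Col11a1 at 24.9 against 55.0 CPM. In the blood list only Cd68 and Fcer1g were tested, at 42.7 against 6.36 CPM and at 5.12 against 19.6 CPM. Under the minimum level, Ptprc was at 3.23 against 1.01 CPM, Lyz2 at 0.854 against 2.08 CPM and Csf1r at 0.0949 against 0.319 CPM. Adgre1, Itgam, Tyrobp and Cd3e had no UMI in the Enpp2-high cells, and Adgre1 and Tyrobp had none in Enpp2-low cells either. The list summed to 52.0 CPM against 29.5 CPM. In the endothelial list Cdh5 (VE-cadherin) was at 16.1 against 3.62 CPM and Kdr, under the minimum level, at 4.08 against 0.239 CPM. Emcn (3.13 against 2.18 CPM) and Egfl7 (6.93 against 4.92 CPM) were also above the Enpp2-low level. Pecam1 (0.474 against 0.911 CPM), Tek (0.474 against 1.38 CPM), Erg (0.379 against 0.763 CPM) and Vwf (0.285 against 0.649 CPM) were below it. Cldn5 had no UMI in either set, and the list summed to 32 against 14.7 CPM. The epithelial list summed to 5.88 against 20.1 CPM with Krt8 its most abundant gene, and the mesothelial list to 15.7 against 37.1 CPM with Msln the most abundant. Choroid plexus and oligodendrocytes, which also make autotaxin, were not matched: Ttr, Otx2, Mag and Mobp had no UMI. Aqp1 was at 183 against 134 CPM. The tested genes of the oligodendrocyte and Schwann list went both ways, with S100b at 43.6 against 25.1 CPM and Cnp at 16.9 against 33.6 CPM. That list summed to 62.1 against 61.6 CPM.

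Mesenchymal genes were mixed. Of 25 tested mesenchymal transcription factors 4 were at least 2-fold higher and 1 was lower, and the median was 0.17. Foxd1 was at 76.3 against 24.2 CPM, Tcf4 at 413 against 144 CPM, Lhx9 at 11 against 3.47 CPM and Snai2, which represses epithelial genes, at 109 against 41.9 CPM. Of 14 tested surface markers Pdgfra alone was higher, while Cd200 (3.70 against 17.2 CPM) and Cd34 (6.83 against 18.3 CPM) were lower. Of 19 tested collagens 4 were lower and none was higher, with a median of -0.18. Fibrillar collagen I hardly differed, with Col1a1 at 3522 against 3074 CPM, whereas Col12a1 (21.1 against 67.1 CPM), Col5a3 (18.7 against 44.8 CPM), Col15a1 (96.9 against 214 CPM) and Col11a1 were lower. In the elastic fibre list 2 of 18 were higher and 4 lower: Mfap4 was at 180 against 45.1 CPM and Ltbp4 at 24.9 against 10.2 CPM, and Fbln5 at 173 against 454 CPM and Mfap5 at 18.2 against 43.4 CPM. Of the 22 tested proteoglycans and matricellular proteins 4 were higher, among them Thbs2 (454 against 176 CPM) and Omd (67.1 against 26.9 CPM), and 2 were lower, Thbs1 (5.79 against 28.3 CPM) and Ccn2 (14.0 against 38.5 CPM).

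Secreted signals changed in both directions. In the Wnt list 3 of 13 genes were higher and 3 lower. The higher ones, Axin2 (13.7 against 3.35 CPM), Nkd1 (33.8 against 9.56 CPM) and Dkk2 (254 against 92.6 CPM), all encode negative regulators that Wnt signals can induce or that bind its receptors, and the lower ones included Sfrp2. The ligand Wnt10a, also higher at 104 against 22.7 CPM, is not part of this list. Of 21 growth signals 3 were higher and 3 lower, with Vegfc, a growth factor of lymphatic vessels, at 24.9 against 3.24 CPM, and with Areg at 4.17 against 17.7 CPM. Fgf21 was at 6.17 against 17.9 CPM, but at 5.46 against 4.04 CPM without the muscle-rich cells, which held it at 264 CPM. Of 17 genes of TGF-beta and BMP signalling Bmp4 was higher (110 against 52.1 CPM), and Tgfbi (92.6 against 221 CPM) and Grem1 (53.7 against 116 CPM), which binds and blocks BMP, were lower. Among 10 chemokines 3 were higher, namely Ccl8 (49.3 against 8.61 CPM), Cxcl10 (14.2 against 5.30 CPM) and Ccl7 (99.6 against 44.0 CPM). The most abundant, Cxcl12, was at 365 against 728 CPM, past 2-fold only without the muscle-rich cells (log2 ratio -1.05), and the list summed to 785 against 1012 CPM. Among 10 complement genes, whose median was 0.21, C4b was at 6.26 against 13.9 CPM. Of 6 eicosanoid genes tested, Alox5ap, needed to make leukotrienes, was at 271 against 70.6 CPM, and Ptgis, which makes prostacyclin, at 32.7 against 68.7 CPM.

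The cells of other libraries that met the same rule shared some of the higher and some of the lower genes. In H3WT 5-Aza, whose 84 such cells had a median depth of 16661 UMIs, Enpp2 was at 1233 against 10.9 CPM in its own Enpp2-low cells, but Ly6e was at 103 CPM (87.2 to 122) against 95.1 CPM (92.8 to 97.4). Plac8 was at 206 against 104 CPM and Pdgfra at 148 against 122 CPM there. Cilp and Wnt10a had no UMI in these 84 cells, and Mpp6 was at 38.9 against 31.9 CPM. In the 38 such cells of H3R26C DMSO, Ly6e was at 29.7 against 28.5 CPM, Plac8 at 3.13 against 3.27 CPM and Pdgfra at 133 against 131 CPM. The levels in these 38 cells rest on only 19, 2 and 85 UMIs. In the 13 such cells of H3WT DMSO, Ly6e was at 15.2 CPM in both sets, from only 5 UMIs in the 13 cells.

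Counted over genes, the overlap was partial. In H3WT 5-Aza 185 of 8912 tested genes (2.08%) were at least 2-fold higher in the cells that met the rule than in Enpp2-low cells, and 275 (3.09%) were lower. Of the 8386 genes tested in both 5-Aza libraries, 117 were higher in H3R26C 5-Aza, 104 in H3WT 5-Aza and 22 in both. This is 18.8% of the first and 21.2% of the second, beside the 2.08% higher among all genes tested in H3WT 5-Aza. The 117 are only a part of the 234 higher genes, since the others were not tested in both libraries. The shared genes included Tmem176a, Tmem176b, Cd68, Ccl8, Hpse, Fbln7, Gpnmb and Gas6. Tmem176a was at 12 against 2.10 CPM in H3WT 5-Aza, Tmem176b at 29.7 against 5.45 CPM and Hpse at 11.3 against 3.34 CPM, all at lower levels than in H3R26C 5-Aza. Of the genes past 2-fold in opposite directions, 10 were higher and 14 lower in H3R26C 5-Aza. Lower in both were 100 genes, or 48.1% of the 208 lower in H3R26C 5-Aza and 40% of the 250 lower in H3WT 5-Aza, including the muscle genes Myh3, Ttn and Neb. Without muscle-rich cells, of which H3WT 5-Aza had 158 among its Enpp2-low cells, 69 genes were lower in both, or 39.2% of 176 and 33.7% of 205. In H3R26C DMSO 1.97% of 8940 tested genes were higher and 4.08% lower in the cells that met the rule, and of 8293 genes tested in both H3R26C libraries 10 were higher in both, or 10.6% of the 94 higher with 5-Aza and 11.1% of the 90 higher with DMSO. Lower in both were 64 genes, or 39.3% of the 163 lower with 5-Aza and 20.3% of the 315 lower with DMSO. In opposite directions were 11 genes higher and 9 lower with 5-Aza. Since the cells that met the rule were few in these libraries, their values rest on fewer UMIs than those of H3R26C 5-Aza.

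Several of these genes were also high outside the Enpp2-high cells in H3R26C 5-Aza. In Enpp2-low cells Ly6e was at 668 CPM there, against 95.1 in H3WT 5-Aza, 28.5 in H3R26C DMSO and 15.2 CPM in H3WT DMSO. Plac8 was at 286, 104, 3.27 and 2.06 CPM and Hopx at 176, 21.9, 8.42 and 3.47 CPM in the same order. Pdgfra, with 134, 122, 131 and 111 CPM, hardly differed between libraries outside the Enpp2-high cells. Spp1 was at 4888, 789, 416 and 236 CPM. Of the 15 leading genes, Wnt10a (22.7, 0.489, 0 and 0 CPM) and Hpse (35.7, 3.34, 3.32 and 1.06 CPM) followed this order, but Fbln7 was lowest in H3R26C 5-Aza (12.6, 30.1, 27.1 and 26.2 CPM) and so was Nsg1 (63.3, 65.1, 108 and 70.2 CPM). Tmem176a was highest in H3R26C DMSO (7.98, 2.10, 18.4 and 1.40 CPM).

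Another small population of the H3R26C 5-Aza library, the 314 cells with a UMI of both Msln and Cd34 and at most 7 Enpp2 UMIs, had some of the same genes. These cells were deeper, with a median of 17962 UMIs, and since depth raises the chance of a UMI of both genes the choice favours deep cells. Hopx was at 375 CPM (360 to 391) and Wnt10a at 77.4 CPM, both between Enpp2-low and Enpp2-high cells. Ly6e (664 CPM) and Plac8 (246 CPM) were near the Enpp2-low level, and Pdgfra was below it, at 70.1 CPM (63.7 to 77.1). Cilp was at 1.62 CPM and Mfap4 at 8.77 CPM, against 92.7 and 180 CPM in Enpp2-high cells. Spp1 went the other way, at 11527 against 6066 CPM, and a UMI of Mki67 or Top2a was found in 37.6% of them after thinning, against 13.9% of Enpp2-high cells, and in 59.2% and 26.6% before.

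By position in the genome, genes of chromosome 5 were raised as a whole. The median log2 ratio of its 572 tested genes was 0.225 (95% binomial interval of the median over genes 0.204 to 0.256), and 80.9% of them were above 0 against 53.2% of all genes tested. At least 2-fold higher were 32 (5.59%), against 2.61% of all genes tested. Without the genes past 2-fold the median was 0.214. Chromosome 1 followed with 0.157 and chromosome 11 with 0.133, and the lowest were chromosome 12 with -0.124 and the X chromosome with -0.120, which had no gene at least 2-fold higher among 264. The shift on chromosome 5 ran along its length: in 6 consecutive groups of 95 or 96 genes the medians were 0.277, 0.284, 0.312, 0.239, 0.181 and 0.117 from the first to the last.

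Most single cells shared this shift. Over genes that were under 2-fold and under 1000 CPM, chromosome 5 held 6.46% ± 0.743 (SD over 711 cells) of the UMIs of an Enpp2-high cell and 5.67% ± 0.703 (SD over 6101 cells) of an Enpp2-low cell, and 86.1% of Enpp2-high cells lay above the median of Enpp2-low cells. For chromosome 1 the shares were 6.08% ± 0.853 and 5.54% ± 0.887, and for chromosome 11 9.90% ± 0.801 and 9.20% ± 0.883. Above the median of Enpp2-low cells lay 80.3% of Enpp2-high cells for chromosome 1 and 83.5% for chromosome 11. Some chromosomes were shifted down, with 17.3% of Enpp2-high cells above that median for chromosome 9 and 21.1% for the X chromosome. A shift in most cells was thus not particular to chromosome 5. These cells are from 1 library and their SD is not a replicate error. The marker genes Hopx, Plac8 and Pdgfra and the leading genes Gbp9, Nsg1 and Hpse lie on chromosome 5. DNA content was not measured here, and its part in these values was not tested. Enpp2-low cells against all kept H3WT 5-Aza cells had medians of -0.336 for chromosome 8, -0.171 for chromosome 9 and -0.149 for chromosome 18. In the same comparison the medians were 0.171 for chromosome 15 and 0.071 for chromosome 5, beside -0.038 over all genes tested.

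**Figure D5:**
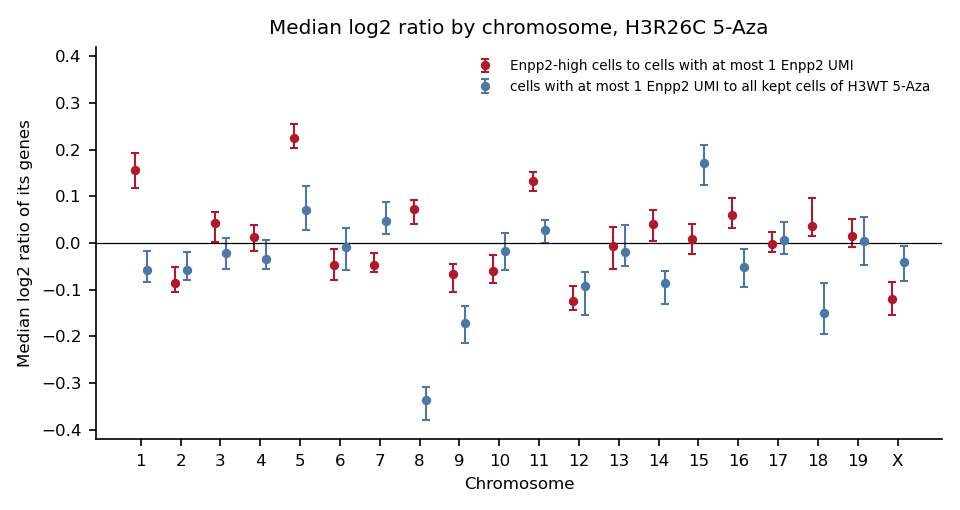
Median log2 ratio of the tested genes of each chromosome, with 95% binomial intervals of the median over genes, for Enpp2-high against Enpp2-low cells of H3R26C 5-Aza (red) and for Enpp2-low cells of H3R26C 5-Aza against all kept cells of H3WT 5-Aza (blue). In red chromosome 5 stands highest at 0.225, and in blue chromosome 8 lowest at -0.336.

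Genes that were higher also lay beside each other. Of the 234 higher genes 26.1% had a directly neighbouring tested gene that was also at least 2-fold higher, against 4.97% of all genes tested. Runs with at least 3 higher genes among 5 in a row were found at 9 places. Around Pdgfra on chromosome 5 (74195286 to 75198215) 5 of 6 tested genes were higher, Rasl11b, Scfd2, Fip1l1, Lnx1 and Pdgfra, and further along (105014150 to 105293698) all 5 tested genes were higher, Gbp8, Gbp9, Gbp4, Gbp10 and Gbp6, which are guanylate-binding proteins. On chromosome 6 (48833818 to 50263862) 5 of 7 were higher, Tmem176b, Tmem176a, Gpnmb, Mpp6 and Gsdme, of which only the first pair are related. On chromosome 15 (74955051 to 75894481) 5 of 7 were higher, Ly6e, Ly6c1, Ly6c2, Gsdmd and Naprt. On chromosome 17 the runs were of the immunoproteasome genes Psmb9 and Psmb8 with Tap1, and of 6 class I genes. The Gbp, Ly6c and H2-Q genes are families of similar copies, and neighbours among them can share reads.

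The genes in which Enpp2-high cells varied most among themselves included both abundant and modest transcripts. Over 3325 genes with at least 50 CPM the variance of the thinned counts was a median of 1.09 times their mean, where pure counting error gives about equal values. The 10 genes with the highest ratios were Malat1 (96.8), Gm42418 (42.3), Ptn (31.4), Spp1 (23.7), Acta1 (21), Mylpf (19.5), Igfbp5 (15.7), Slpi (15.1), Tmsb10 (14.8) and Crabp1 (12.7). Without the 5 muscle-rich cells the ratio was 2.47 for Acta1, 2.55 for Mylpf and 7.13 for Tmsb10, and 12.8 or more for the other 7. Malat1 is a long RNA kept in the nucleus, Ptn the growth factor pleiotrophin and Igfbp5 a binding protein of insulin-like growth factors. Slpi and Crabp1 were uneven, with a median of 0 CPM over cells beside summed levels of 119 and 107 CPM. Igfbp5 had a median of 159 CPM and quartiles of 49.8 and 726 CPM. Among the markers the ratio was 6.37 for Plac8, 5.92 for Ly6e and 2.56 for Pdgfra, and Cilp, the gene with the largest difference, had 2.34.

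Within the 711 cells Spearman's rho with the Enpp2 level of the cell was 0.30 for Pdgfra, 0.27 for Tmem176a, 0.21 for Ly6e and 0.18 for Plac8, and -0.64 for Tmsb10, a small actin-binding protein. These are descriptions over cells of 1 library. The levels share the depth of each cell, and the minimum of 8 UMIs ties Enpp2 to depth, since rho between the Enpp2 level and the UMIs of a cell was -0.60.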

How the data were processed

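The authors counted UMIs on mm10 by Cell Ranger, for which the headers of the files give version 6.1.0, and deposited the filtered matrices as whole-number counts without normalization. The submitters' processing notes also name Seurat 4. The 4 libraries were assigned from their titles, no column was left unmapped, and the kept cells held 86871326 (H3WT DMSO), 84345500 (H3WT 5-Aza), 84060490 (H3R26C DMSO) and 110712425 UMIs (H3R26C 5-Aza). The members and the gene lists were chosen with earlier results of these data known.

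Counts of the deposited matrices were summed over cells and set in CPM. Log2 ratios used a pseudocount of 1 CPM and genes with at least 10 CPM in 1 or both sets of cells. With 1 library for each condition no test was run. A count of 0 UMIs in a set allows up to 3. No doublets were removed and no doublet caller was run. For shares, cells were thinned to 5000 UMIs at random. Named were the 5 markers, the 15 largest and 10 smallest ratios above 50 CPM, up to 4 genes for each of 48 lists, the markers included, and the 10 most variable genes. Gene positions came from GENCODE M21 on GRCm38 (99.6% matched by identifier) and promoters from RefSeq. The lists not described in the report are given in the closing section. The steps were tested on simulated data (Python 3.11.15; matplotlib 3.10.9; pandas 2.3.3; scipy 1.17.1; numpy 2.4.6). The other data types of the study are not analysed here, and the values of some list members are not reported here.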

Additional observations from a re-analysis of the deposited data

Results flagged for a closer look

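In 13 of the genes named here the log2 ratio between cells that met the rule and Enpp2-low cells was past 2-fold in opposite directions in H3R26C 5-Aza and H3WT 5-Aza. Over all genes tested in both libraries, 10 were higher in the first and lower in the second, and 14 the reverse. These differences were not tested, since each condition had 1 library.

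Matrix and growth factor genes were among those that were higher in H3R26C 5-Aza and lower in H3WT 5-Aza. Mfap4, a protein of elastic microfibrils, had 1.98 and -1.62, from 180 against 45.1 CPM and 23.4 against 74.0 CPM. Omd (osteomodulin, a matrix proteoglycan) had 1.29 and -1.31, Bmp4 (a ligand of the BMP pathway) 1.06 and -1.63, and Nkd1 (an inhibitor of Wnt signals) 1.72 and -1.50. The surface genes Ly6c1 and Ly6c2, which are similar copies and can share reads, had 1.05 and -1.21 and 1.28 and -1.07.

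The other 7 were lower in H3R26C 5-Aza and higher in H3WT 5-Aza. Slpi, an inhibitor of proteases, had -1.55 and 2.40, from 119 against 350 CPM and 814 against 154 CPM. Hsd11b1, an enzyme that reactivates glucocorticoids, had -1.67 and 1.69. Tgfbi, a matrix protein induced by TGF-beta, had -1.24 and 1.66, from 92.6 against 221 CPM and 161 against 50.3 CPM. Crabp1, which binds retinoic acid, had -1.17 and 1.32, and complement C4b -1.04 and 1.35. Rhox5, a homeobox gene of the germline, had -1.20 and 1.32, and Fcer1g, an adaptor of immune receptors, -1.75 and 1.37.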

How the results depend on the processing

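No paired analysis was possible because there was 1 library for every condition, and for the same reason no library could be left out. The share of cells that met the rule, 9.33% as reported, was 10.3% with stricter cell filters, 7.46% with looser ones, 12.2% and 6.38% with at least 4 and 16 Enpp2 UMIs, and 10.3% where Hopx was not required. The 234 higher genes became 95 at a minimum of 50 CPM and 424 at 1 CPM. The 274 lower genes became 84 and 500 there, 163 with a pseudocount of 5 CPM and 415 with at least 16 Enpp2 UMIs.

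The muscle list (median -2.22) had -1.98 with a pseudocount of 5 CPM, -1.85 in thinned cells, -1.83 from per-cell means, -1.98 without the deepest 5% of cells, -2.48 in cells without Mki67 or Top2a and -0.27 without cells with at least 3 muscle markers, which left only 199 Enpp2-high and 1675 Enpp2-low cells. It had -0.19 without the muscle-rich cells, an alternative chosen after seeing the data. In the last but 1 of these Myh3 (0.43), Mymx (0.62) and Mylpf (0.03) turned positive, and in the last Des (0.36), Myh3 (0.16), Ttn (0.08) and Myl1 (0.02). The list of G2 and mitosis (-0.88) had, in the order of the first 5, -0.71, -1.04, -1.04, -1.11 and, where cycling cells were left out by construction, -0.12, and -1.41 with at least 16 Enpp2 UMIs. The median of chromosome 5 (0.225) was 0.202 with the larger pseudocount, 0.199 at 1 CPM, 0.277 with at least 16 Enpp2 UMIs and 0.263 without cycling cells. The interferon list stayed between 0.73 and 0.97 and the MHC class I list between 0.74 and 0.91. The cause of the other changes was not tested.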

Other observations

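The gene groups that follow were outside the report. Over all genes tested the median log2 ratio was 0.020 with quartiles of -0.16 and 0.21. Of 16 matrix proteases and inhibitors none was at least 2-fold higher and 2 were lower, among them Mmp3 (stromelysin, a matrix protease) at 2.47 against 20.8 CPM. Of 10 genes of insulin-like growth factors and their binding proteins Igfbp2 was higher, at 60.8 against 22.5 CPM, and Igf1 (159 against 359 CPM) and Igf2 were lower. Of 6 retinoid genes Crabp1 and Crabp2 were lower, Crabp2 at 52.7 against 123 CPM. None of 4 Notch genes, 3 Hox genes or 14 genes of cholesterol synthesis was past 2-fold, with medians of -0.40, -0.21 and 0.24.

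Among 14 immediate early genes Fosl2 was higher (118 against 48.0 CPM) and Nr4a1 lower (11 against 34.5 CPM). Among 12 genes of p53 and CDK inhibitors only Cdkn2c, an inhibitor of the cell cycle, was past 2-fold, at 150 against 56.1 CPM, while Cdkn1a was at 263 against 333 CPM. Of 4 oncofetal genes Hmga1 was lower, at 61.4 against 130 CPM. Of 20 genes of glutathione and oxidative stress Gpx3 (28.3 against 9.50 CPM) and Sod3 (266 against 127 CPM), both secreted antioxidant enzymes, were higher. Hspb1 was the only 1 of 12 heat shock genes past 2-fold, at 11.9 against 5.04 CPM, Egln3 the only 1 of 18 of glycolysis and hypoxia, at 8.73 against 23.5 CPM, and Meg3 the only 1 of 6 nuclear RNAs.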
